A study of Mus musculus with 18 samples.

Results

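The genes described here code for the beta subunits of the sodium-potassium pump and for small FXYD proteins that associate with it. The members are 6 named gene symbols, Atp1b1, Atp1b2, Atp1b3, Fxyd1, Fxyd6 and Fxyd7, found by their names in every library among 55291 gene symbols. Of these, 3 code for beta subunits and 3 for FXYD proteins. Genes of the catalytic alpha subunit were not analysed here.

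RNA was taken from the right hippocampus of wild-type male C57BL/6J mice, used to model epilepsy of the mesial temporal lobe. The mice were 6 weeks old at the virus injection. All 3 groups carried a RiboTag AAV (AAVDJ-GfaABC1D-EGFP-Rpl10a) injected into the right CA3, which expresses an EGFP-tagged ribosomal protein from the GfaABC1D promoter, an astrocyte-selective fragment of the GFAP promoter. In the KA group, mice received kainic acid in the right dentate gyrus 2 weeks after the virus, with RNA taken 14 days after kainic acid. AAV control mice had no second injection and their RNA was taken 2 weeks after the virus, and PBS mice received PBS after the virus. The day on which RNA of the PBS group was collected is not given in the sources used here. There were 3 samples per group (#1 to #3), and every sample pooled 3 to 4 mice. From each homogenate an IP library, in which an anti-GFP antibody enriched RNA on tagged ribosomes, and an input library were made, which gave 18 libraries. Sequencing run 1 held #1 and #2 from KA and AAV control mice, run 2 held #3 of each, and run 3 held the PBS group, so a difference between the PBS group and another group cannot be told apart from one between runs. The AAV control group also differed from the KA group in the time after AAV injection, and so in age at collection, and in the number of injections.

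The sodium-potassium pump moves sodium out of the cell and potassium into it, using ATP. A beta subunit is needed for the pump to fold and reach the membrane, and the choice of beta subunit and of FXYD partner alters how strongly the pump binds its ions. In brain, the pump of astrocytes takes part in clearing the potassium that active neurons release. Atp1b1 codes for the beta subunit found widely in neurons, whereas Atp1b2 codes for the glial beta subunit, first described as the adhesion molecule on glia (AMOG). Atp1b3 codes for a beta subunit of wide tissue distribution. Fxyd1 codes for phospholemman, a phosphorylated regulator of the pump, Fxyd6 for phosphohippolin and Fxyd7 for a brain FXYD protein.

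IP libraries held between 9281256 and 16032180 counts and input libraries between 7991681 and 12587839. The IP libraries were checked against markers of astrocytes: 8 of 8 were higher in IP than in input in each group at an adjusted p-value under 0.05, whereas 7 of 7 neuronal markers were lower in the AAV control and PBS groups and 6 of 7 in the KA group. In the KA group, 6 of 6 oligodendrocyte markers were also higher in IP, with a median log2 difference of 1.41. In the AAV control and PBS groups 0 of 6 were higher, and 2 were lower in the PBS group. The labels call the cell type of the input libraries astrocyte as well, although input holds RNA of the whole homogenate. AAV control #3 stood apart from AAV control #1 and #2. Its summed FPKM of 6 oligodendrocyte markers was 1037 in IP against 247 and 316, and that of 6 choroid plexus markers 31.7 in input against 3051 and 2169. In IP it differed from #1 and #2 by 92.1 and 102 times the counting noise, beside 8.35 between those 2. KA #3, also of run 2, differed from KA #1 and #2 by 76.8 and 62.8 times in IP, beside 9.59. In input these KA values were 45.1, 39.6 and 4.48. The PBS IP samples, all of run 3, differed by 55.6 to 81.2 times. In these bulk samples, fewer cells of a type and less RNA per cell cannot be told apart. The samples are pools of mice, and p-values measure the spread between pools.

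The genes lie on 4 chromosomes (GRCm38). Fxyd1 (chr7:31051678-31057199) and Fxyd7 (chr7:31042513-31051467) are neighbours on the minus strand, with 210 bases between them and Fxyd1 upstream. Fxyd7 is followed by Fxyd5, which lies 31 bases away, and Fxyd6 (chr9:45370185-45396159, plus strand) lies 3509 bases from Fxyd2. Atp1b3 (chr9:96332655-96364442) is on the minus strand of the same chromosome as Fxyd6, and Atp1b2 (chr11:69599736-69605942) is on the minus strand of chromosome 11. Atp1b1 (chr1:164437109-164458355, minus strand) overlaps Nme7 on the opposite strand, whose FPKM, looked up for this overlap, was between 1.59 and 6.85 in all libraries and lower in the KA IP samples (2.57 to 2.84) than in the AAV control IP samples (5.27 to 6.85).

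Of the 6 genes, 4 (Atp1b1, Atp1b3, Fxyd1 and Fxyd6) had an entry in the RefSeq promoter table of GRCm38.p6. The 250 bases upstream of the start are shown for 3 genes whose level in IP changed with KA, of which Atp1b1 and Fxyd1 rose and Fxyd6 fell. The window of Atp1b3, which also rose in IP with KA, is not shown. Sequences are given 5′ to 3′ on the strand of the gene, with matches to the motifs searched on either strand in capitals. The Atp1b1 window is chr1:164458356-164458605 (minus strand), the Fxyd1 window chr7:31054854-31055103 (minus strand) and the Fxyd6 window chr9:45369935-45370184 (plus strand). The Fxyd1 window lies inside the span of longer annotated Fxyd1 transcripts.
Atp1b1: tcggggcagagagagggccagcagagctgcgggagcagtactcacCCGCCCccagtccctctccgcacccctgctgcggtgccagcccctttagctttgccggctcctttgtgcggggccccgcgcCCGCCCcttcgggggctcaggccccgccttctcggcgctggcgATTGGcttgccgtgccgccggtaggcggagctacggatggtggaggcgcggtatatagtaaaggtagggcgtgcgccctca
Fxyd1: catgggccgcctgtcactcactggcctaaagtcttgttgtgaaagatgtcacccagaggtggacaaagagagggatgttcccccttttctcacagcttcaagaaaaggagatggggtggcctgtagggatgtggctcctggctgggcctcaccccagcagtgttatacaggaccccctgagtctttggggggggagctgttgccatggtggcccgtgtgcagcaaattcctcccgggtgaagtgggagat
Fxyd6: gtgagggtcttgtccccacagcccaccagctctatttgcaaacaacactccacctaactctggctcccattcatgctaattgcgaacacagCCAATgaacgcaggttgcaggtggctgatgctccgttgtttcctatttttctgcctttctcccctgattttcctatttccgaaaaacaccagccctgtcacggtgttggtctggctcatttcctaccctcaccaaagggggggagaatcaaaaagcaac

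The Atp1b1 window held 2 matches to the GC box (GGGCGG), at 205 to 200 and 124 to 119 bases before the start, and 1 to the CCAAT box (CCAAT), at 81 to 77 bases before it. The Fxyd6 window held 1 CCAAT match, at 159 to 155 bases before the start. The Fxyd1 window held none of the 6 motifs searched on both strands, which also included the TATA box (TATAAA), the AP-1 motif (TGANTCA), the CRE (TGACGTCA) and the STAT motif (TTCNNNGAA). Of 32851 RefSeq windows of the same length, 32.7% held GGGCGG, 33.8% CCAAT, 12.4% TATAAA, 7.02% TTCNNNGAA, 6.75% TGANTCA and 1.55% TGACGTCA. The share of G and C was 70.4% in the Atp1b1 window, 57.2% in that of Fxyd1 and 50.4% in that of Fxyd6, beside a median of 52.4% over all windows.

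In IP samples, the KA group had higher levels of Atp1b1, Fxyd1, Fxyd7 and Atp1b3 and a lower level of Fxyd6 than the AAV control group, while Atp1b2 did not pass the test. Atp1b1 was 3.47-fold, Fxyd1 3.67-fold and Fxyd7 2.89-fold higher, and Fxyd6 was 3.12-fold lower. Against the PBS group the same 5 genes passed in the same directions, in a comparison that shares the KA samples. Genes were tested with edgeR on counts, called at an adjusted p-value under 0.05 and given with the standard error (SE) of the log2 fold change. By this rule, 5 of the 6 genes were called against AAV control, where 20.1% of the 9729 genes tested were called, and 5 against PBS, where 37% of 9847 were called. The median log2 fold change of the 6 genes was 1.15 against AAV control and 1.20 against PBS, beside -0.02 in each comparison over all genes tested. FPKM did not overlap between KA and AAV control IP samples for 5 of the 6 genes (37% of all genes tested), nor between KA and PBS IP samples for the same 5 (46%). Between the PBS and AAV control groups, edgeR called 0 of the 6 genes and 0% of 10667 genes in IP, where 1153 genes and 0 of the 6 had an unadjusted p under 0.05, DESeq2 called 16 genes and limma 0, and FPKM overlapped for all 6 (13.4% of genes did not overlap). Within run 1 alone, which held 2 samples of each group, the log2 fold change against AAV control in IP was 1.71 for Atp1b1, 0.26 for Atp1b2, 1.05 for Atp1b3, 1.78 for Fxyd1, -1.70 for Fxyd6 and 1.81 for Fxyd7. The 5 genes were called in this fit of 2 samples against 2, where 46% of 10474 genes were called. Run 2 held 1 sample of each group and gave no test. The plot of FPKM in the 18 libraries shows the level of each gene.

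**Figure D1:**
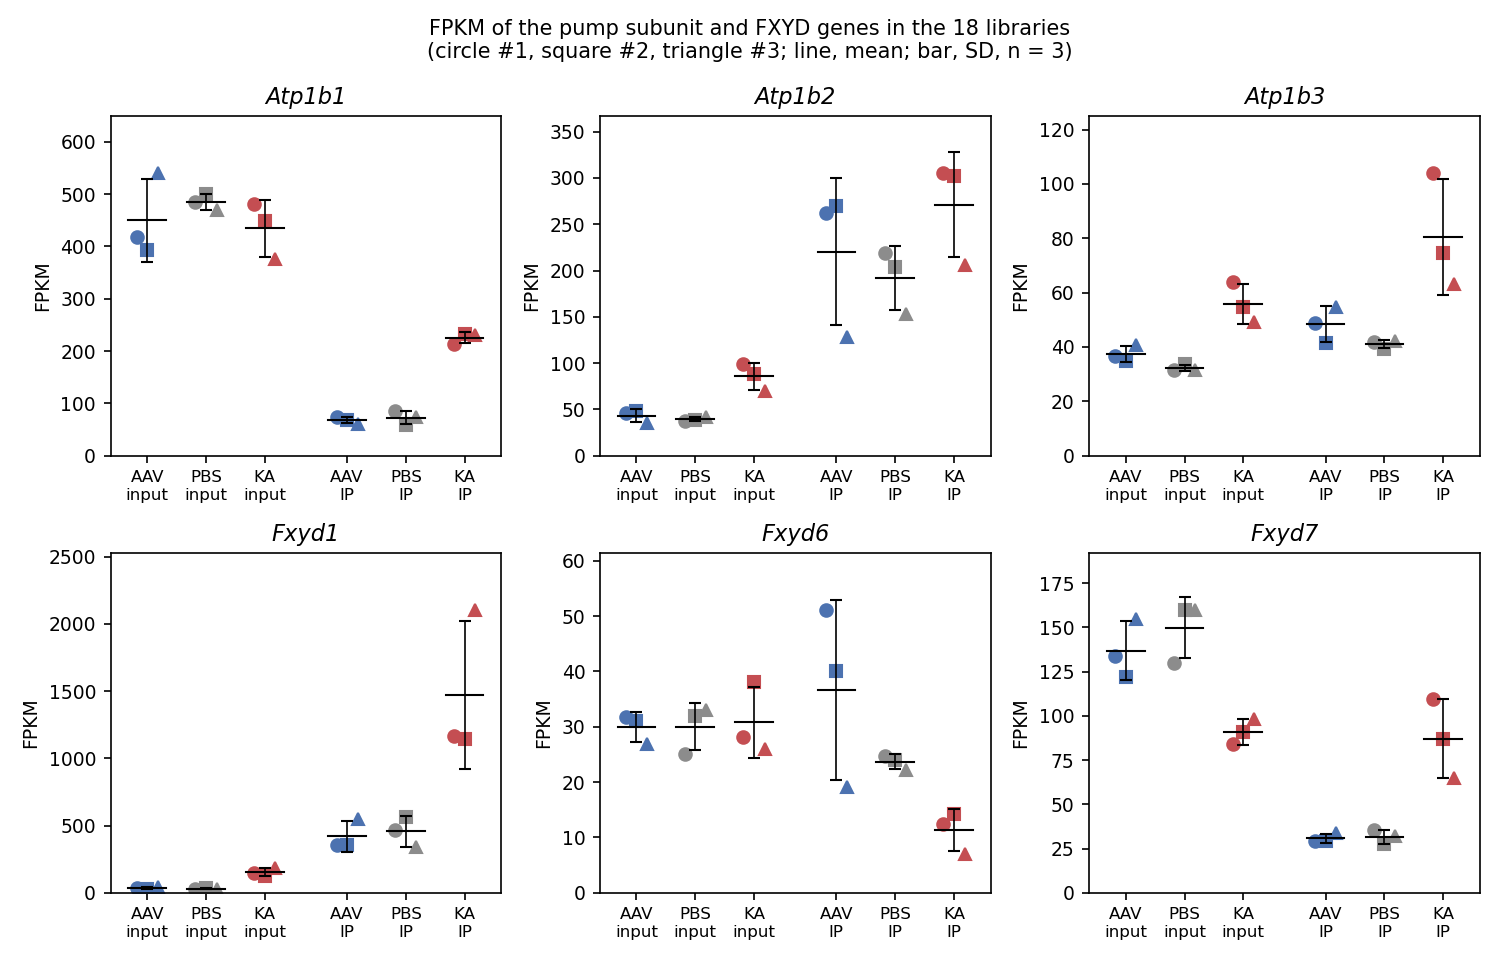
FPKM (fragments scaled by gene length and by library depth, linear axes from 0) of the 6 genes in AAV control (blue), PBS (grey) and KA (red) libraries, input on the left and IP on the right of each panel. Points are single libraries (circle #1, square #2, triangle #3), lines are means and bars are SD (n = 3). In IP, the KA samples of Atp1b1, Atp1b3, Fxyd1 and Fxyd7 lie above all control samples and those of Fxyd6 below them.

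Atp1b1, the beta subunit gene found widely in neurons, was the most abundant of the 3 beta subunit genes in input. FPKM, a level per gene length, was 418, 392 and 541 in AAV control input, 485, 500.4 and 470.0 in PBS input, and 482, 449 and 375 in KA input. The input groups overlapped, and the log2 fold change of KA was -0.06 against AAV control (SE 0.22, adjusted p = 0.921) and -0.18 against PBS (0.14, adjusted p = 0.384). In IP, FPKM was 73.9, 69.1 and 61.4 in the AAV control group, 85.1, 59.4 and 73.5 in the PBS group, and 213, 233 and 232 in the KA group. All KA IP samples were thus above all control IP samples, while every IP sample stayed below every input sample. Atp1b1 rose with KA in IP by a log2 fold change of 1.79 (0.19, adjusted p = 0.00102) against AAV control and 1.65 (0.23, adjusted p = 0.000572) against PBS. In input, run 1 alone gave 0.20 with an adjusted p of 0.0449, and without AAV control input #3 the value was 0.16 (adjusted p = 0.419), each of opposite sign to the value over all samples. Over all alternatives of this input comparison the adjusted p ranged from 0.0449 to 0.983.

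Atp1b2, which codes for the glial beta subunit AMOG, was the most abundant beta subunit gene in IP of the control groups. Its FPKM in IP was 262, 270.0 and 128 in the AAV control group, 219, 204 and 152 in the PBS group, and 306, 302 and 206 in the KA group. The IP groups overlapped, and sample #3 was the lowest of each group. The log2 fold change of KA in IP was 0.37 (SE 0.28, adjusted p = 0.403) against AAV control and 0.47 (0.29, adjusted p = 0.216) against PBS. In input, FPKM was 46.0, 47.9 and 34.8 in the AAV control group, 37.8, 38.5 and 41.7 in the PBS group, and 98.5, 88.3 and 70.3 in the KA group. Here all KA samples were above all control samples, and Atp1b2 rose by 1.0 (0.16, adjusted p = 0.0127) against AAV control and 1.10 (0.11, adjusted p = 7.2e-05) against PBS. The call against AAV control was lost without KA input #1 (adjusted p = 0.0904), KA input #2 (0.0736) or AAV control input #1 (0.0708), with values from 0.92 to 1.08 and adjusted p from 0.00231 to 0.0904 over the 6 samples left out in turn.

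Atp1b3, the beta subunit gene of wide distribution, had FPKM of 48.7, 41.6 and 54.8 in AAV control IP, 41.8, 39.2 and 42.2 in PBS IP, and 104, 74.5 and 63.0 in KA IP. The KA IP samples were above all control IP samples, the lowest of them by less than the range within the KA group. On the log2 scale, Atp1b3 rose by 0.77 (SE 0.23, adjusted p = 0.0486) against AAV control and 0.96 (0.20, adjusted p = 0.00411) against PBS. The first of these calls was lost without any 1 of AAV control IP #1 and #2 and KA IP #1, #2 and #3, with values from 0.59 to 0.93 and adjusted p from 0.0105 to 0.163 over the 6 samples left out in turn, and when scaled by library totals alone (0.73, adjusted p = 0.0654). In input, FPKM was 36.6, 34.9 and 40.9 in the AAV control group, 31.5, 33.6 and 31.6 in the PBS group, and 63.8, 54.9 and 49.2 in the KA group, without overlap. The input log2 fold change against AAV control was 0.57 (0.15, adjusted p = 0.0869), and with samples paired by number it was 0.58 with an adjusted p of 0.0293. Without AAV control input #3 it was 0.70 (adjusted p = 0.00441, range 0.00441 to 0.356 over the samples left out in turn). Against PBS, Atp1b3 rose in input by 0.78 (0.11, adjusted p = 0.000522).

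Fxyd1, which codes for phospholemman, had the highest FPKM of the 6 genes in IP in every group. FPKM in IP was 355, 352 and 552 in the AAV control group, 465, 567 and 340 in the PBS group, and 1165, 1146 and 2104 in the KA group. The lowest KA IP sample was above the highest control IP sample, and KA IP #3 was the highest of its group. On the log2 scale, Fxyd1 rose in IP by 1.88 (SE 0.40, adjusted p = 0.0158) against AAV control and 1.69 (0.42, adjusted p = 0.0103) against PBS. The call against AAV control was lost without AAV control IP #1 (1.73, adjusted p = 0.0697) or #2 (1.73, adjusted p = 0.066), and over the 6 samples left out in turn the adjusted p ranged from 0.00405 to 0.0697. In input, FPKM was 32.4, 25.9 and 42.8 in the AAV control group, 31.5, 33.6 and 29.7 in the PBS group, and 149, 126 and 188 in the KA group. The KA input samples were again above all others, and Fxyd1 rose in input by 2.19 (0.28, adjusted p = 0.00537) against AAV control, a 4.57-fold difference, and by 2.28 (0.18, adjusted p = 9.98e-06) against PBS.

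Fxyd6, which codes for phosphohippolin, was the only one of the 6 genes called lower with KA in IP against AAV control or PBS. FPKM in IP was 51.1, 40.0 and 19.0 in the AAV control group, 24.7, 24.1 and 22.2 in the PBS group, and 12.5, 14.3 and 7.0 in the KA group. All KA IP samples were below all control IP samples, and AAV control IP #3 was close to the PBS IP samples. On the log2 scale, Fxyd6 fell by 1.64 (SE 0.34, adjusted p = 0.0152) against AAV control and fell by 1.10 (0.23, adjusted p = 0.00426) against PBS. The call against AAV control was lost without KA IP #1 (log2 fold change -1.69, adjusted p = 0.0571) or KA IP #3 (-1.43, adjusted p = 0.051), with adjusted p from 0.000949 to 0.0571 over the 6 samples left out in turn. In input, FPKM was 31.9, 31.1 and 26.8 in the AAV control group, 25.1, 31.9 and 33.1 in the PBS group, and 28.1, 38.2 and 26.1 in the KA group. These groups overlapped, and the log2 fold change of KA in input was 0.04 (0.15, adjusted p = 0.924) against AAV control and 0.03 (0.13, adjusted p = 0.905) against PBS. Without AAV control IP #3, Fxyd6 was also lower in PBS IP than in AAV control IP, with a log2 fold change of -0.85 (adjusted p = 0.0365) in place of -0.56 (0.31, adjusted p = 0.509), in a fit that called 10.2% of all genes.

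Fxyd7, the brain FXYD gene, was higher with KA in IP and lower in input. FPKM in IP was 29.3, 29.3 and 33.8 in the AAV control group, 35.5, 27.5 and 32.2 in the PBS group, and 110, 86.7 and 65.0 in the KA group. The KA IP samples were above all control IP samples, and on the log2 scale Fxyd7 rose by 1.53 (SE 0.21, adjusted p = 0.00273) against AAV control and 1.45 (0.19, adjusted p = 0.000424) against PBS. In input, FPKM was 134, 122 and 155 in the AAV control group, 130, 160 and 160 in the PBS group, and 83.8, 90.7 and 98.5 in the KA group. Here all KA samples were below all control samples. The log2 fold change in input was -0.59 (0.18, adjusted p = 0.122) against AAV control, and with samples paired by number it was -0.58 with an adjusted p of 0.0145. Run 1 alone gave -0.55 with an adjusted p of 1.63e-05, and leaving out AAV control input #3 gave -0.42 with an adjusted p of 0.0497 (range 0.0497 to 0.451 over the samples left out in turn). Against PBS, Fxyd7 fell in input by 0.72 (0.12, adjusted p = 0.00141).

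**Figure D2:**
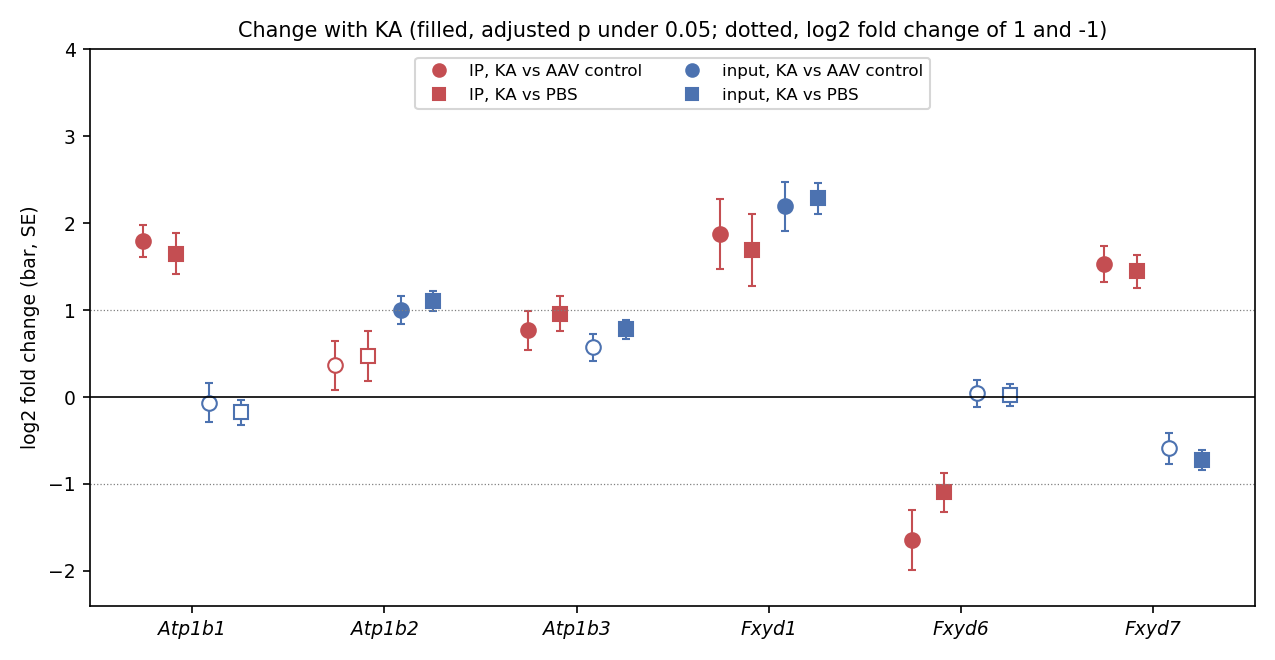
Log2 fold change of KA (vertical axis) for the 6 genes (horizontal axis), in IP (red) and input (blue), against AAV control (circles) and PBS (squares). Bars are standard errors of the edgeR fit, filled symbols passed an adjusted p of 0.05 and dotted lines mark 1 and -1. Atp1b1, Fxyd6 and Fxyd7 differ between IP and input, and Fxyd1 is above 1 in all 4 comparisons.

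In input, edgeR called 2 of the 6 genes (Atp1b2 and Fxyd1) against AAV control, where 4.49% of 10809 genes were called, and 4 (Atp1b2, Atp1b3 and Fxyd1 higher, Fxyd7 lower) against PBS, where 27.7% of 10849 were called. FPKM did not overlap in input for 4 of the 6 genes between KA and AAV control (22.6% of genes tested) and for 4 between KA and PBS (35.9%). With samples paired by number, 4 of the 6 were called against AAV control, adding Atp1b3 and Fxyd7, where the share of all genes called was 10.2%. Other fits of this comparison also called more genes in all, with 4 of the 6 and 16% of all genes for the run as a covariate, and 5 of the 6 and 41.6% of 11489 genes for run 1 alone. The median log2 fold change of the 6 genes was 0.31 against AAV control and 0.40 against PBS, beside -0.03 and 0.005 over all genes tested. Between PBS and AAV control input, edgeR called 0 of the 6 genes and 0% of 10924, where 901 genes and 0 of the 6 had an unadjusted p under 0.05 and DESeq2 called 30 genes and limma 0, and 1 gene, Atp1b3, did not overlap (10.9% of genes tested). Without AAV control input #3, Fxyd7 was called higher in PBS than in AAV control input, with a log2 fold change of 0.31 (adjusted p = 0.0145) in place of 0.15 (adjusted p = 0.755), in a fit that called 36.5% of all genes.

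Levels of cell type markers also differed with KA. In input, the summed FPKM of the 8 astrocyte markers was 1163 to 1211 in the KA group, 446 to 795 in the AAV control group and 683 to 842 in the PBS group, and 3 of 8 rose against AAV control and 6 of 8 against PBS. The summed FPKM of 6 microglial markers in input was 688 to 974 in the KA group, 66.2 to 139 in the AAV control group and 78.2 to 88.7 in the PBS group, and 6 of 6 rose against each. The 6 choroid plexus markers summed to 2534 to 4555 in KA input, 31.7 to 3051 in AAV control input and 35.9 to 315 in PBS input, and of the 2 tested 0 rose against AAV control and 2 against PBS. None of these astrocyte, microglial and choroid plexus markers was at 0 in any input library. The rise of Fxyd1, Atp1b2 and Atp1b3 in input went with these differences, whose part in the result was not tested. Neuronal markers moved the other way in input, where the 7 summed to 687 to 739 in the KA group, 873 to 1029 in the AAV control group and 951 to 1027 in the PBS group. Of the 7, 0 fell against AAV control and 4 against PBS, with a median log2 fold change of -0.21 and -0.46, beside -0.59 and -0.72 for Fxyd7. The 5 interneuron markers summed to 921 to 1094 in KA input and 1306 to 1470 in control input, and 1 of 5 fell against AAV control and 3 against PBS. The part of neuronal RNA in the lower Fxyd7 level in KA input was not tested. In IP, the summed FPKM of the 7 neuronal markers was 243 to 305 in the KA group, 124 to 153 in the AAV control group and 116 to 202 in the PBS group, with none of the 7 at 0 in any library. Of these, 2 rose against AAV control and 3 against PBS, and their median log2 fold change was 0.61 and 0.07, beside 1.79 and 1.65 for Atp1b1 and 1.53 and 1.45 for Fxyd7. The sum of the 5 interneuron markers was lower with KA, at 73.5 to 93.9 in KA IP, 166 to 240.5 in AAV control IP and 147 to 306 in PBS IP. Taken singly, 3 of the 5 rose and 1 fell against AAV control, and 1 rose and 1 fell against PBS. Their median log2 fold change was 1.25 and 0.56. The summed FPKM of the 6 oligodendrocyte markers in IP was 1279 to 2439 in the KA group, 247 to 1037 in the AAV control group and 277 to 550 in the PBS group, with none at 0, and 2 of 6 rose against AAV control and 6 of 6 against PBS. The 6 microglial markers in IP summed to 20.5 to 50.2 in the KA group, 9.10 to 14.9 in the AAV control group and 7.44 to 15.8 in the PBS group. Of the 3 tested, 2 rose against AAV control, and 2 rose and 1 fell against PBS. The part of neuronal, oligodendrocyte and microglial RNA in the rise of Atp1b1, Atp1b3, Fxyd1 and Fxyd7 in IP was not tested. The summed FPKM of the 8 astrocyte markers in IP overlapped between KA (5729 to 6735), AAV control (5456 to 8972) and PBS (6162 to 10880), with none at 0. Singly, 2 of the 8 rose and 3 fell against AAV control, and 1 rose and 4 fell against PBS, with a median log2 fold change of -0.84 and -0.67. The lower levels of Fxyd6 and of Nkain4, a gene described further on, in KA IP went with this shift, whose part in these results was not tested.

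IP was next compared with input within each group, to place each gene on the side of the tagged ribosomes or of the whole homogenate. In the AAV control and PBS groups, Fxyd1 and Atp1b2 were higher in IP, and Atp1b1 and Fxyd7 were lower. The edgeR comparison called 4 of the 6 genes in the AAV control group, where 39.7% of 9961 genes were called, 5 in the PBS group, where 56.3% of 10401 were called, and 5 in the KA group, where 34.4% of 10098 were called. FPKM in IP and input did not overlap for 5 of the 6 genes in the AAV control group (50.6% of genes tested), 6 in the PBS group (58.1%) and 4 in the KA group (49.6%). The median log2 difference of the 6 genes was 0.47 in the AAV control group, 0.15 in the PBS group and 0.43 in the KA group, beside 0.009, 0.04 and 0.01 over all genes tested. FPKM is scaled by library totals over all genes alone. In fits scaled only by the totals of the tested genes, the median log2 difference was -0.15 in the AAV control group, -0.07 in the PBS group and -0.22 in the KA group. The median for the scaling of FPKM itself was not computed, so a ratio of 1 need not mark a gene that moved with the median.

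Fxyd1 had the highest IP to input ratio of FPKM among the 6 genes in every sample. It was 10.9, 13.6 and 12.9 in the AAV control samples, 14.8, 16.9 and 11.4 in the PBS samples, and 7.83, 9.10 and 11.2 in the KA samples. Its log2 difference between IP and input was 3.80 (SE 0.36, adjusted p = 0.000224) in the AAV control group, 4.03 (0.32, adjusted p = 1.46e-06) in the PBS group and 3.49 (0.38, adjusted p = 0.000318) in the KA group. For Atp1b2 the ratio was 5.69, 5.63 and 3.69 in the AAV control samples, 5.78, 5.30 and 3.65 in the PBS samples, and 3.10, 3.42 and 2.92 in the KA samples. Every KA sample had a lower Atp1b2 ratio than every control sample, while all ratios stayed above 1. The ratio of the summed astrocyte markers was also lower with KA, at 4.74 to 5.79 against 11.3 to 12.2 in the AAV control group and 7.92 to 12.9 in the PBS group. That of the oligodendrocyte markers was higher, at 1.78 to 2.64 against 0.323 to 1.16 and 0.402 to 1.03. The part of these marker shifts in the lower KA ratios of Atp1b2 and Fxyd6 was not tested. The log2 difference of Atp1b2 was 2.49 (0.28, adjusted p = 0.000445), 2.45 (0.26, adjusted p = 8.56e-06) and 1.87 (0.17, adjusted p = 0.000167) in the AAV control, PBS and KA groups.

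Atp1b1 and Fxyd7 were on the input side in both control groups and had higher ratios in the KA group. The Atp1b1 ratio was 0.177, 0.176 and 0.113 in the AAV control samples, 0.176, 0.119 and 0.156 in the PBS samples, and 0.442, 0.519 and 0.617 in the KA samples. The Fxyd7 ratio was 0.219, 0.240 and 0.218 in the AAV control samples, 0.273, 0.172 and 0.201 in the PBS samples, and 1.31, 0.956 and 0.660 in the KA samples. The KA ratios of both genes were above those of all control samples, and for Fxyd7 1 of 3 KA samples was above 1. For comparison, the ratio of the summed neuronal markers was 0.141 to 0.151 in the AAV control group, 0.113 to 0.197 in the PBS group and 0.354 to 0.413 in the KA group. That of the interneuron markers went the other way, at 0.114 to 0.164, 0.112 to 0.234 and 0.0672 to 0.102 in these groups. The part of these marker shifts in the higher KA ratios of Atp1b1 and Fxyd7 was not tested. In the KA group, Atp1b1 was still lower in IP than in input by a log2 difference of -0.72 (SE 0.16, adjusted p = 0.0112), a call lost without KA IP #1 (-0.64, adjusted p = 0.0505, range 0.0032 to 0.0505). The log2 difference of Fxyd7 in the KA group was 0.13 (0.17, adjusted p = 0.58), and its sign turned with scaling by library totals alone (-0.08, adjusted p = 0.783) and without KA IP #1 (-0.02, adjusted p = 0.944, range 0.23 to 0.944).

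Fxyd6 lay on either side of equal levels in IP and input in the control groups, with ratios of 1.60, 1.29 and 0.710 in the AAV control samples and 0.985, 0.754 and 0.670 in the PBS samples. In the KA samples the Fxyd6 ratio was 0.444, 0.375 and 0.269, below all control samples. Over all genes, the share with no overlap between KA and control ratios was not computed, so none stands beside Atp1b1, Atp1b2, Fxyd6 and Fxyd7. Fxyd6 was lower in KA IP than in KA input by a log2 difference of -1.25 (SE 0.22, adjusted p = 0.00346), whereas it did not pass in the AAV control group (0.42, adjusted p = 0.304) or the PBS group (-0.19, adjusted p = 0.387). Without AAV control IP #3 the AAV control value was 0.71 (adjusted p = 0.0134, range 0.0134 to 0.748). Atp1b3 had ratios of 1.17 to 1.34 over the control samples and of 1.63, 1.36 and 1.28 in the KA samples, all above 1. Its log2 difference was 0.53 (adjusted p = 0.0808, and 0.00255 with IP and input paired by homogenate) in the AAV control group, 0.49 (adjusted p = 0.0193) in the PBS group and 0.73 (adjusted p = 0.0105) in the KA group. The PBS call was lost without PBS input #1, #2 or #3 (adjusted p = 0.0628, 0.0684 and 0.12, range 0.0025 to 0.12), and the KA call without KA input #2 (adjusted p = 0.0599, range 0.00356 to 0.0599). Scaling by library totals alone also ended both (adjusted p = 0.0587 and 0.0868), and testing without the filter on FPKM ended the PBS call (adjusted p = 0.163).

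**Figure D3:**
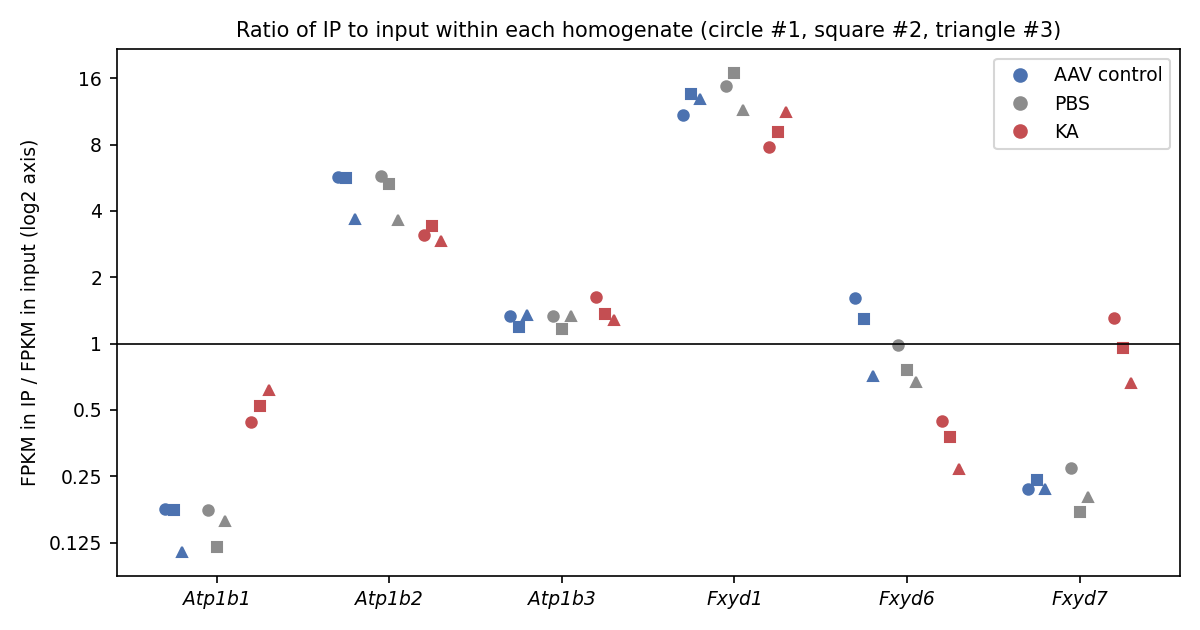
FPKM in IP divided by FPKM in input (vertical axis, log2 scale) of the 6 genes within each homogenate, for AAV control (blue), PBS (grey) and KA (red). Points are single samples (circle #1, square #2, triangle #3) and the line marks a ratio of 1. The KA ratios of Atp1b1 and Fxyd7 lie above and those of Atp1b2 and Fxyd6 below all control ratios. The share of all genes whose KA and control ratios did not overlap was not computed.

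To ask whether the change with KA differed between IP and input, the difference of the 2 log2 fold changes was tested in edgeR over the 12 libraries of the KA group and 1 control group. The KA effect on Atp1b1 and Fxyd7 was higher in IP than in input, and that on Fxyd6 was lower in IP, against each control group. With AAV control as the baseline the difference was 1.87 for Atp1b1 (SE 0.26, adjusted p = 0.000966), 2.14 for Fxyd7 (0.27, adjusted p = 0.000596) and -1.67 for Fxyd6 (0.40, adjusted p = 0.017). With PBS as the baseline it was 1.82 (0.26, adjusted p = 0.000488), 2.16 (0.23, adjusted p = 6.26e-05) and -1.13 (0.28, adjusted p = 0.0111). These 3 of 6 genes were called where 13.2% of 9180 genes were called with AAV control and 25.5% of 9305 with PBS as the baseline. The median difference of the 6 genes was -0.05 and -0.22 on the log2 scale, beside -0.02 and -0.07 over all genes tested.

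The change of the other genes was not called different between IP and input in this test. For Fxyd1, which rose in both, the difference was -0.30 (SE 0.51, adjusted p = 0.776) with AAV control and -0.61 (0.47, adjusted p = 0.359) with PBS as the baseline, and without AAV control IP #3 the first was 0.03 (adjusted p = 0.968, range 0.338 to 0.968). For Atp1b3 it was 0.21 (0.27, adjusted p = 0.699) and 0.18 (0.22, adjusted p = 0.591). For Atp1b2 it was -0.62 (0.33, adjusted p = 0.256) with AAV control as the baseline, and -0.58 with an adjusted p of 0.0295 with the homogenate as a block. Without AAV control IP #3 the Atp1b2 value was -0.85 (adjusted p = 0.0351, range 0.0351 to 0.431). With PBS as the baseline the Atp1b2 difference was -0.65 (0.30, adjusted p = 0.128), and without PBS IP #3 it was -0.86 (adjusted p = 0.0154, range 0.0154 to 0.254).

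The glial and the neuronal beta subunit were then compared within each library, which needs no scaling between libraries. Of the summed FPKM of the 3 beta subunit genes in IP, Atp1b2 made up 68.1%, 70.9% and 52.5% in the AAV control samples, 63.3%, 67.4% and 56.9% in the PBS samples, and 49.1%, 49.6% and 41.1% in the KA samples. Atp1b1 made up 19.2%, 18.1% and 25.1%, then 24.6%, 19.6% and 27.4%, and in the KA samples 34.2%, 38.2% and 46.3%. The shares of the KA samples did not overlap with those of either control group, and in KA IP #3 Atp1b1 was above Atp1b2. The share of Atp1b3 averaged 15.3% ± 6.18 (SD, n = 3), 13.6% ± 1.91 and 13.8% ± 2.49 in the AAV control, PBS and KA IP samples. In input, Atp1b1 made up 84.6% ± 2.74 in the AAV control group, 87.1% ± 0.552 in the PBS group and 75.5% ± 0.594 in the KA group, and Atp1b2 made up 8.31% ± 2.35, 7.08% ± 0.525 and 14.8% ± 0.552. The summed FPKM of the 3 genes averaged 577 ± 67.2 in KA IP against 337 ± 79.6 in AAV control IP and 305 ± 38.8 in PBS IP, and 577 ± 75.8, 531 ± 75.4 and 557 ± 14.7 in KA, AAV control and PBS input.

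**Figure D4:**
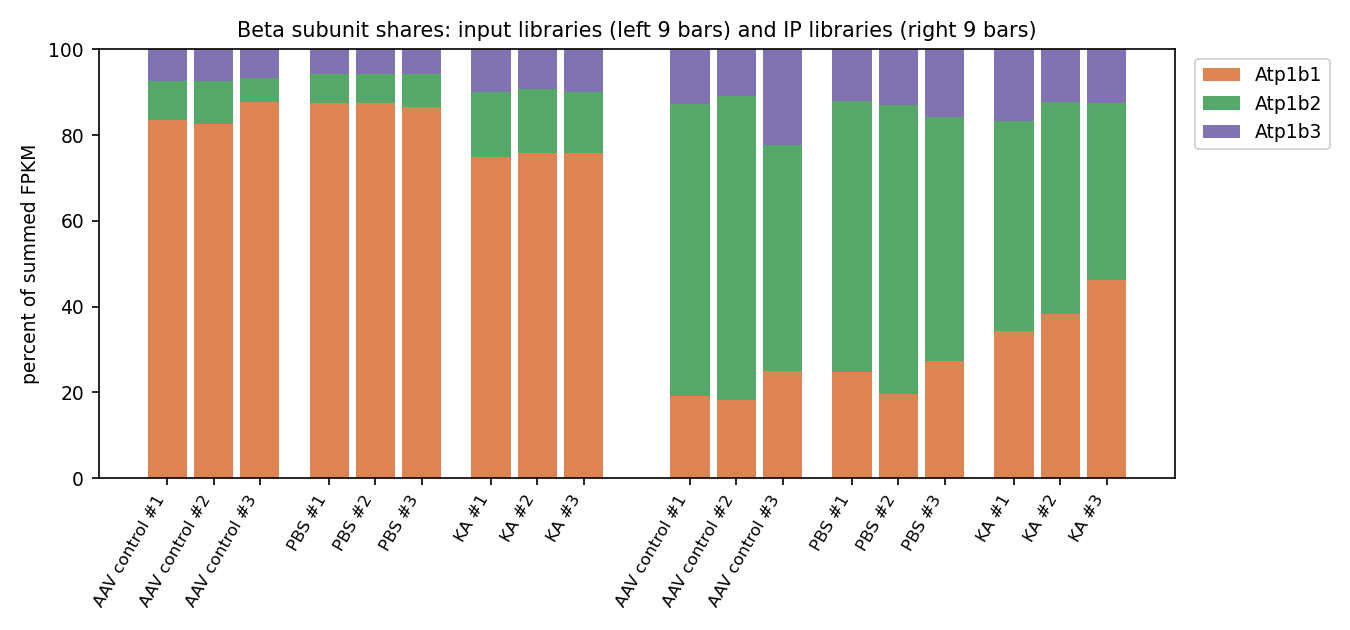
Share of Atp1b1 (orange), Atp1b2 (green) and Atp1b3 (purple) in their summed FPKM (vertical axis, percent) in each input library (left 9 bars) and IP library (right 9 bars). The Atp1b1 share in IP is 34.2% to 46.3% in the KA samples and 18.1% to 27.4% in the control samples.

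The log2 ratio of Atp1b2 to Atp1b1 was lower in IP and higher in input in every KA sample than in every control sample. In IP the mean was 0.24 ± 0.36 (SD, n = 3) in the KA group, 1.62 ± 0.48 in the AAV control group and 1.40 ± 0.36 in the PBS group, with the highest KA sample at 0.52 and the lowest control sample at 1.05. In input it was -2.35 ± 0.06 in the KA group, -3.39 ± 0.50 in the AAV control group and -3.62 ± 0.11 in the PBS group, with the lowest KA sample at -2.42 and the highest control sample at -3.03. The difference between KA and AAV control was -1.38 (SE 0.35) in IP and 1.04 (0.29) in input, and that between KA and PBS was -1.16 (0.30) and 1.27 (0.075). Each of these 4 differences had a two-sided exact permutation p of 0.1, the smallest that 3 samples against 3 can give, and 0.15 after Benjamini-Hochberg adjustment over 6 tests. None of them passed. The difference between PBS and AAV control was -0.22 in IP (exact permutation p = 0.5) and -0.23 in input (exact permutation p = 0.4).

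Fxyd1 and Fxyd7 lie next to each other on the same strand, and reads past the end of Fxyd1 could be counted for Fxyd7. In IP, Fxyd7 counts were 0.98% to 2.98% of Fxyd1 counts in the KA group, 1.94% to 2.64% in the AAV control group and 1.54% to 3.0% in the PBS group. In KA IP #3, where Fxyd1 was highest, Fxyd7 was the lowest of the group. In input, Fxyd7 counts were 115% to 149% of Fxyd1 counts in the AAV control group, 131% to 171% in the PBS group and 16.6% to 22.8% in the KA group. The part of Fxyd1 reads in the Fxyd7 counts of IP was not tested.

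Among 9001 genes compared over the 18 libraries by Pearson correlation of log2 levels, the genes most like Atp1b1 were Got1 (0.99), Sult4a1 (0.99) and Nell2 (0.99), and those most like Fxyd7 were Ap2a1 (0.98), Igsf8 (0.98) and Fam131a (0.97). Atp1b2 was most like Gpam (0.996), Sdc4 (0.99) and Kcnj10 (0.99), the last of which codes for an inward rectifier potassium channel of astrocytes. Fxyd1 was most like S100a6 (0.99), Lhfp (0.99) and Gfap (0.99), the intermediate filament gene of reactive astrocytes. Atp1b3 was most like Gltp (0.97), Dap (0.96) and Myl12a (0.95), and Fxyd6 was most like Ak4 (0.94), Cadm1 (0.91) and Bmyc (0.90). Among the 6 genes themselves, Atp1b1 and Fxyd7 correlated at 0.95 and Atp1b2 and Fxyd1 at 0.92, whereas Atp1b1 and Atp1b2 correlated at -0.75. The libraries share homogenates, depth and the split into IP and input, so these values are descriptions.

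Of the 9 other genes of the beta, FXYD and NKAIN families, 2 passed the filter on FPKM in the IP comparisons with KA. Both were called against AAV control (20.1% of all genes) and 1 against PBS (37% of all genes). Nkain4, which codes for a membrane protein that interacts with a beta subunit of the pump, had FPKM of 294, 243 and 330 in AAV control IP, 288, 320 and 249 in PBS IP, and 92.4, 78.0 and 91.2 in KA IP. The KA IP samples were below all control IP samples, and on the log2 scale Nkain4 fell by 1.68 (SE 0.23, adjusted p = 0.0027) against AAV control and fell by 1.72 (0.23, adjusted p = 0.000474) against PBS. In input its log2 fold change was 0.02 (adjusted p = 0.973) and -0.19 (adjusted p = 0.348). Nkain2 rose in IP by 1.18 (0.24, adjusted p = 0.0145) against AAV control, with a value of 0.45 (adjusted p = 0.151) against PBS. In input, 4 of the 9 were tested. Against AAV control 1 rose and 0 fell (4.49% of all genes called), and against PBS 1 rose and 1 fell (27.7%). Fxyd5 rose in input by 1.25 (0.21, adjusted p = 0.0172) against AAV control and 1.48 (0.18, adjusted p = 0.000239) against PBS, with FPKM of 4.66 to 4.71 in KA input and 1.23 to 2.39 in control input. Nkain3 fell in input by 0.57 (0.14, adjusted p = 0.0142) against PBS, with a value of -0.37 (adjusted p = 0.432) against AAV control. Atp1b4 had between 0 and 4 counts in any library.

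Of 22 sodium- or potassium-coupled carriers that use the gradients made by the pump, 18 were tested in IP against AAV control, where 4 were called, beside 20.1% over all genes. Slc12a2, the sodium-potassium-chloride importer NKCC1, rose on the log2 scale by 1.29 (SE 0.29, adjusted p = 0.0192), and Slc12a5, the neuronal potassium-chloride exporter KCC2, rose by 0.92 (0.21, adjusted p = 0.022). Slc12a4, a potassium-chloride exporter, fell by 1.14 (0.23, adjusted p = 0.0133), and Slc20a2, a sodium-phosphate carrier, fell by 0.76 (0.17, adjusted p = 0.0196). Against PBS, 1 of 18 rose and 3 fell (37% of all genes called). Slc12a2 rose by 1.52 (adjusted p = 0.00486) and Slc20a2 fell by 0.81 (adjusted p = 0.00491) in that comparison, while Slc12a5 had a value of 0.21 (adjusted p = 0.455) and Slc12a4 of -0.48 (adjusted p = 0.0903), neither of which was called. The median over the 18 carriers was -0.07 on the log2 scale against AAV control and -0.18 against PBS, beside -0.02 over all genes tested in each comparison. In input, 1 of 21 carriers tested was called against AAV control (4.49% of all genes), Slc38a3, chosen after its values were seen, which rose by 1.26, and against PBS 3 of 19 rose and 4 fell (27.7% of all genes called).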

How the data were processed

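RNA of IP and input samples was sequenced from the KA, AAV control and PBS groups. Reads were mapped by the authors to mm10 using STAR, and the submitters' processing notes also name featureCounts and edgeR. The authors deposited, for each of the 18 libraries, raw whole-number counts of 55291 gene symbols (15221 had no count in any library). The authors also deposited FPKM for each symbol, which for 99.9% of 40070 symbols with counts was the count scaled by library total and 1 gene length (tolerance 1%). Not given in the sources used here are strandedness, annotation version and how multi-gene reads were treated. Without strand, reads of Atp1b1 and Nme7 where they overlap cannot be told apart. Library totals ranged from 7991681 to 16032180 counts.

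Groups were taken from the labels, and runs and pooling from the study's methods. The members, gene lists and tests were chosen with earlier results of these data known. Differential expression was computed on the deposited counts in R 4.3.3 with the quasi-likelihood test of edgeR 4.0.16 after TMM normalization, in the libraries of the groups compared. Only genes whose FPKM exceeded 1 in every compared library were tested, with Benjamini-Hochberg adjustment across all of them. SE was derived from the log2 fold change and the F statistic. Named were the 6 members, tested genes of the same families, the 2 carriers with the smallest p in each direction in IP against AAV control, and for each member the 3 genes of highest Pearson correlation on log2(FPKM + 1). Ratios of Atp1b2 to Atp1b1 were compared with two-sided exact permutation tests. Coordinates came from GENCODE on GRCm38, in which 53292 symbols (96.4%) matched, and promoters from RefSeq on GRCm38.p6. No 2 replicate libraries were duplicates, since they differed by 4.48 to 109 times the counting noise. The scripts were tested on simulated data.

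Pairing by sample number was checked with residuals after removal of group means. They correlated at 0.359 to 0.555 in IP and 0.366 to 0.563 in input between KA and AAV control. For the PBS group the residuals correlated at -0.313 to 0.365. In KA and AAV control, samples of 1 number also shared a run, so this check cannot tell pairing by number from run. No shared origin of equal numbers across groups is stated. The replicate block was fitted as an alternative in every comparison, those with the PBS group included. IP and input of 1 number share a homogenate. Alternatives were DESeq2 1.42.0 size factors, library totals alone, DESeq2, limma 3.58.1 (voom), no FPKM filter, a replicate block, the run as a covariate, run 1 alone and leaving out each sample. Library totals in the edgeR fits were summed over the tested genes.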

Additional observations from a re-analysis of the deposited data

Results flagged for a closer look

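The change with KA differed between IP and input for 3 of the 6 genes, by the interaction term of the edgeR fit over 12 libraries. Over all genes tested, this term was called for 13.2% of 9180 with AAV control and 25.5% of 9305 with PBS as the baseline. On the log2 scale, the change in IP minus the change in input was 1.87 for Atp1b1, 2.14 for Fxyd7 and -1.67 for Fxyd6 with AAV control as the baseline. With PBS as the baseline these values were 1.82, 2.16 and -1.13. The 2 baselines share the KA samples. All 6 values kept their direction and their call in each alternative tried, leaving out each of the 12 libraries included.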

How the results depend on the processing

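Of 888 values of single genes under alternatives, 831 kept their direction and side of the threshold, 17 gained and 21 lost a call, and 19 turned in sign. The cause of these changes was not tested. With the replicate block, 4 in place of 2 of the 6 genes were called in input against AAV control, where 10.2% in place of 4.49% of all genes were called. The run as a covariate also gave 4 (16% of all genes), and run 1 alone gave 5 (41.6%). The other calls changed by the block were that of Atp1b3 between IP and input of the AAV control group (adjusted p = 0.00255) and the Atp1b2 interaction with AAV control as the baseline (adjusted p = 0.0295), and the block changed no other call. Over all genes, the block moved the number called by over 1.5 times in IP against AAV control (3356 in place of 1960), in input against AAV control (1101 in place of 485), between IP and input of the AAV control group (6102 in place of 3959) and of the KA group (5336 in place of 3477), and in the interaction with AAV control as the baseline (3286 in place of 1210), and it called 1 in place of 0 between PBS and AAV control input. Without AAV control #3, edgeR called 1122 genes in IP and 4076 in input between PBS and AAV control, 3369 in IP and 2643 in input between KA and AAV control. With 1 sample left out, between 3 and 5 of the 6 genes were called in IP against AAV control and 1 to 4 in input against AAV control. The share of all genes called in these fits ranged from 8.59% to 33.8% in IP and from 1.23% to 23.8% in input. Between PBS and AAV control, 0 to 1 of the 6 were called in IP and in input alike, where 0% to 10.2% and 0% to 36.5% of all genes were called.

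Turned in sign were Fxyd7 between PBS and AAV control IP without the FPKM filter (-0.025), Atp1b1 in input against AAV control in run 1 alone (0.202) and Fxyd7 between IP and input of the KA group with library totals only (-0.078). With samples left out, the following ranges crossed 0 on the log2 scale. Between PBS and AAV control they were -0.016 to 0.197 for Atp1b1, -0.361 to 0.083 for Atp1b2, -0.14 to 0.497 for Fxyd1 and -0.031 to 0.206 for Fxyd7 in IP, and -0.24 to 0.204 for Fxyd1 and -0.027 to 0.088 for Fxyd6 in input. In input with KA they were -0.174 to 0.158 for Atp1b1 and -0.105 to 0.124 for Fxyd6 against AAV control, and -0.125 to 0.108 for Fxyd6 against PBS. Between IP and input of the KA group the range was -0.019 to 0.258 for Fxyd7, and for the interaction it was -0.752 to 0.034 for Fxyd1 with AAV control and -0.007 to 0.299 for Atp1b3 with PBS as the baseline.

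With 3 pools per group, calls near the threshold rest on single samples, and the exact permutation test cannot pass 0.05. The PBS group was sequenced in a run of its own.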
